A study of Homo sapiens with 3 samples.

Results

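The last 3.03 Mb of the long arm of chromosome 20 (distal band 20q13.33, from 60 Mb to the chromosome end at base 63025520, hg19) held 206 of the 42681 peaks called in H2087 cells. Of these, 120 of 24096 were peaks of H3K27ac and 86 of 18585 were peaks of H3K4me3. A peak was a distinct interval of a deposited list, kept with its highest −log10 q. The region was chosen by position after the number of peaks there had been seen, so the peak number, the density, the peaks at gene starts and the sequence of the peaks are given as descriptions and were not tested. H2087 is an established human lung adenocarcinoma line, and the cells were untreated. ChIP-seq, in which an antibody pulls down chromatin and the DNA on it is sequenced, was done for acetylation of lysine 27 on histone H3 (H3K27ac, abcam ab4729) and for trimethylation of lysine 4 (H3K4me3, abcam ab8580). The labels describe 3 samples, namely 1 library for each mark and an input without antibody, and the input was not analysed here. With 1 library for each mark (n = 1) no value below has a replicate, and the 95% intervals reflect the counting error alone and take adjacent peaks to be independent of each other.

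H3K4me3 marks the nucleosomes around active or poised promoters, and H3K27ac marks active promoters and active enhancers. Many promoters lie in CpG islands, stretches rich in G+C in which the CpG dinucleotide is not depleted, and islands often carry H3K4me3. The end of the long arm of chromosome 20 is crowded with short genes. Among them are genes used in every cell, such as proteasome and ribosome subunits, beside genes known from neurons, such as receptor subunits.

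As a check of the label, the starts of 10 lung epithelial genes were searched for peaks. A start, the outer 5′ end of a protein-coding gene in GENCODE 44, was called marked when a peak lay within 1 kb. H3K4me3 marked 7 of the 10 (background 38.2% of all protein-coding starts) and H3K27ac 7 (23.6%), and 6 had both (18.6%, KRT7, KRT8, KRT18, KRT19, CDH1 and NKX2-1). NAPSA and SFTPB, listed with the others as genes of lung epithelium and adenocarcinoma, had neither. Of the markers of other cell types, 9 were found in the annotation and 0 had a peak of either mark.

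The sequences under the peaks of both marks with the highest H3K27ac −log10 q are shown first, because the same stretches recur in the results. Each is the strand of the named gene, 5′ to 3′, in lower case with every CpG in capitals. The stretch of HELZ2 (chr20:62205200-62205399, minus strand) lay in an intron beside exon 1 and held 14 CpGs in 200 bases. The RTEL1 stretch (chr20:62312780-62312960, plus strand) was intronic, 181 bases long and held 4 CpGs. The TCEA2 stretch (chr20:62694738-62694833, plus strand, intron) held 14 CpGs in 96 bases. The ARFRP1 stretch (chr20:62337727-62337926, minus strand) overlapped an exon and held 4 CpGs.
HELZ2: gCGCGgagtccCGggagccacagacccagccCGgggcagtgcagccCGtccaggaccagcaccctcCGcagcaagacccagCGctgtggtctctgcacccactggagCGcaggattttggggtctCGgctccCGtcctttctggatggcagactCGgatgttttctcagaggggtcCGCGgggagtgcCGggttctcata
RTEL1: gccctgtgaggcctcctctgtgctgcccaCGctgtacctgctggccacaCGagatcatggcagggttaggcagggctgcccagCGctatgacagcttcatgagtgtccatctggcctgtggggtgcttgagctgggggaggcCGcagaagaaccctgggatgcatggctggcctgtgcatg
TCEA2: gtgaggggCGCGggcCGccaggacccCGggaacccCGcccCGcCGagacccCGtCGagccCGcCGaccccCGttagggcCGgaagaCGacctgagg
ARFRP1: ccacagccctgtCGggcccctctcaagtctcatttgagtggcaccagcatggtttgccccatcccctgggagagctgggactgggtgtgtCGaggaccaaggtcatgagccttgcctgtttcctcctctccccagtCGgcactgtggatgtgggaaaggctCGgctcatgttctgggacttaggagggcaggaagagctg
The bases just upstream of 3 gene starts without either mark are printed as well, to show that CpG-rich starts could lack a peak. They were chosen for the highest CpG ratio around the start among the genes with no peak within 1 kb of any of their transcript starts, which leaves out TAF4. They belong to TCFL5 (chr20:61493175-61493374, minus strand), LSM14B (chr20:60697317-60697516, plus strand) and MRGBP (chr20:61427625-61427824, plus strand), each 200 bases long and outside annotated genes.
TCFL5: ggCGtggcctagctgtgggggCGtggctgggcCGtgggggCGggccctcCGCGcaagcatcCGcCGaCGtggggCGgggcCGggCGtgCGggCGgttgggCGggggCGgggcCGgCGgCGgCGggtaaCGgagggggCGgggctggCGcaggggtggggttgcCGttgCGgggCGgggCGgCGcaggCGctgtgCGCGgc
LSM14B: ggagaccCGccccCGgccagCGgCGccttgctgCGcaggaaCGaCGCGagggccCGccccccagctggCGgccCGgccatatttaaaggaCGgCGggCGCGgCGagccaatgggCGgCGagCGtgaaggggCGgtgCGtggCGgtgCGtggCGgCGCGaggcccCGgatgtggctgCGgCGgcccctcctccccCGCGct
MRGBP: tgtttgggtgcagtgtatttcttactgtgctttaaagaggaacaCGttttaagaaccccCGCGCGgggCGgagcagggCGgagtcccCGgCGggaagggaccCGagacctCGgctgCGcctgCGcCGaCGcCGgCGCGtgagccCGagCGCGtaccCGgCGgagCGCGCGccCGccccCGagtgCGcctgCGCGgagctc
These upstream stretches held 31, 31 and 30 CpGs. They were chosen for CpG content and the marked stretches for −log10 q, so the sets are not a comparison.

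Both marks were dense in this region. There were 39.7 H3K27ac peaks per Mb (95% Poisson interval 32.9 to 47.4) against 10.4 on the rest of chromosome 20 (625 peaks) and 7.78 over all chromosomes. There were 28.4 H3K4me3 peaks per Mb (22.7 to 35.1) against 6.77 on the rest of the chromosome (406 peaks) and 6.004 over all chromosomes. The ratio to the rest of the chromosome was 3.81 for H3K27ac (3.11 to 4.64) and 4.20 for H3K4me3 (3.29 to 5.31). Without the single window from 62 to 63 Mb, these ratios were 1.90 (1.34 to 2.61) and 2.41 (1.64 to 3.44). The region made up 4.8% of the chromosome's length and held 16.1% of its H3K27ac peaks and 17.5% of its H3K4me3 peaks. Peaks covered 46.4 kb with H3K27ac and 34.4 kb with H3K4me3, or 1.53% and 1.14% of the region against 0.360% and 0.275% of the rest of the chromosome.

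Genes were dense too. The region held 64 protein-coding gene starts, 21.2 per Mb against 8.05 per Mb on the rest of chromosome 20 (483 starts), and thus 11.7% of the starts of the chromosome. Counted per start, the excess of peaks was smaller than per Mb. There were 1.88 H3K27ac peaks per start against 1.29, a ratio of 1.45 (1.18 to 1.76), and 1.34 H3K4me3 peaks per start against 0.841, a ratio of 1.60 (1.25 to 2.02). Without the window from 62 to 63 Mb the ratios per start were 1.104 (0.781 to 1.52) and 1.40 (0.952 to 2.00), with intervals that include 1. The sequence was also richer in G+C, at 55.5% against 43.6%, with 28.6 CpGs per kb against 11.2. The part of gene number and of base composition in the peak number was not tested.

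The number of peaks followed the number of starts along the chromosome. In 59 windows of 1 Mb with less than 500 kb of assembly gap each, the window from 62 to 63 Mb was the highest for H3K27ac (80 peaks, with 54 in the highest window outside the region), for H3K4me3 (53, with 29 outside) and for gene starts (36, with 35 outside). The windows from 60 to 61 Mb and from 61 to 62 Mb had 20 H3K27ac peaks each, against a median window of 6. Across the 59 windows, peaks and starts were correlated, with Pearson's r = 0.82 and Spearman's rho = 0.80 for H3K27ac and r = 0.87 and rho = 0.89 for H3K4me3. Without the windows of the region, r was 0.77 and 0.86. These coefficients are descriptions over neighbouring windows of 1 library each.

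**Figure D1:**
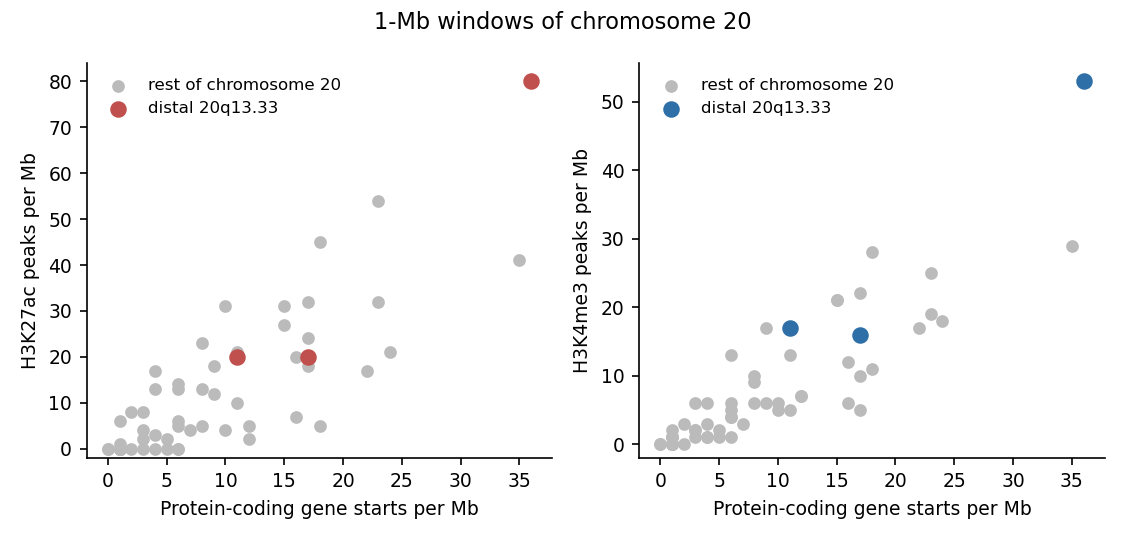
Peaks per 1-Mb window (vertical axis) against protein-coding gene starts per 1-Mb window (horizontal axis) along chromosome 20, for H3K27ac on the left and H3K4me3 on the right, with 1 point per window. The 3 coloured windows lie in distal 20q13.33, and the one with 36 starts lies above all grey windows for both marks, with 80 and 53 peaks, whereas the other coloured windows lie among the grey ones.

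Within the region the peaks were gathered in the last megabase. From 60 to 61 Mb there were 20 H3K27ac and 17 H3K4me3 peaks with 11 starts, from 61 to 62 Mb 20 and 16 with 17 starts, and from 62 Mb to the end 80 and 53 with 36 starts. The stretches differed more in H3K27ac at starts than in H3K4me3. H3K27ac marked 1 of 11 starts in the first stretch, 6 of 17 in the next and 20 of 36 in the last (9.09%, 35.3% and 55.6%), with intervals of 0.230 to 41.3 for the first and 38.1 to 72.1 for the last that still overlap. H3K4me3 marked 7, 9 and 21 starts (63.6%, 52.9% and 58.3%). These counts hold for the outer start. With the start of any transcript, TAF4, SS18L1 and LAMA5 of the first stretch also had H3K27ac. So did further genes of the last stretch, such as EEF1A2 and UCKL1. The share of H3K27ac peaks that overlapped an H3K4me3 peak was 10%, 25% and 33.8% in the same order, with a background of 24.0% of all H3K27ac peaks. All 19 H3K27ac peaks with a −log10 q of at least 5, and 14 of the 16 such H3K4me3 peaks, lay in the last stretch.

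In windows of 100 kb, 9 of 31 held no peak, and 7 of these had no protein-coding start either. The last window, from 63000001 to the chromosome end, was shorter and all assembly gap (25520 bases), so it could hold neither. The window before it, also empty, held 34480 bases of gap. The 3 windows with the most peaks held 33.98% of the members. The highest, from 62300001 to 62400000, had 18 H3K27ac and 7 H3K4me3 peaks and takes in most of RTEL1 and the starts of TNFRSF6B, ARFRP1 and ZGPAT. It was followed by the window from 62600001 to 62700000 with 15 and 9 peaks and that from 62500001 to 62600000 with 15 and 6.

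**Figure D2:**
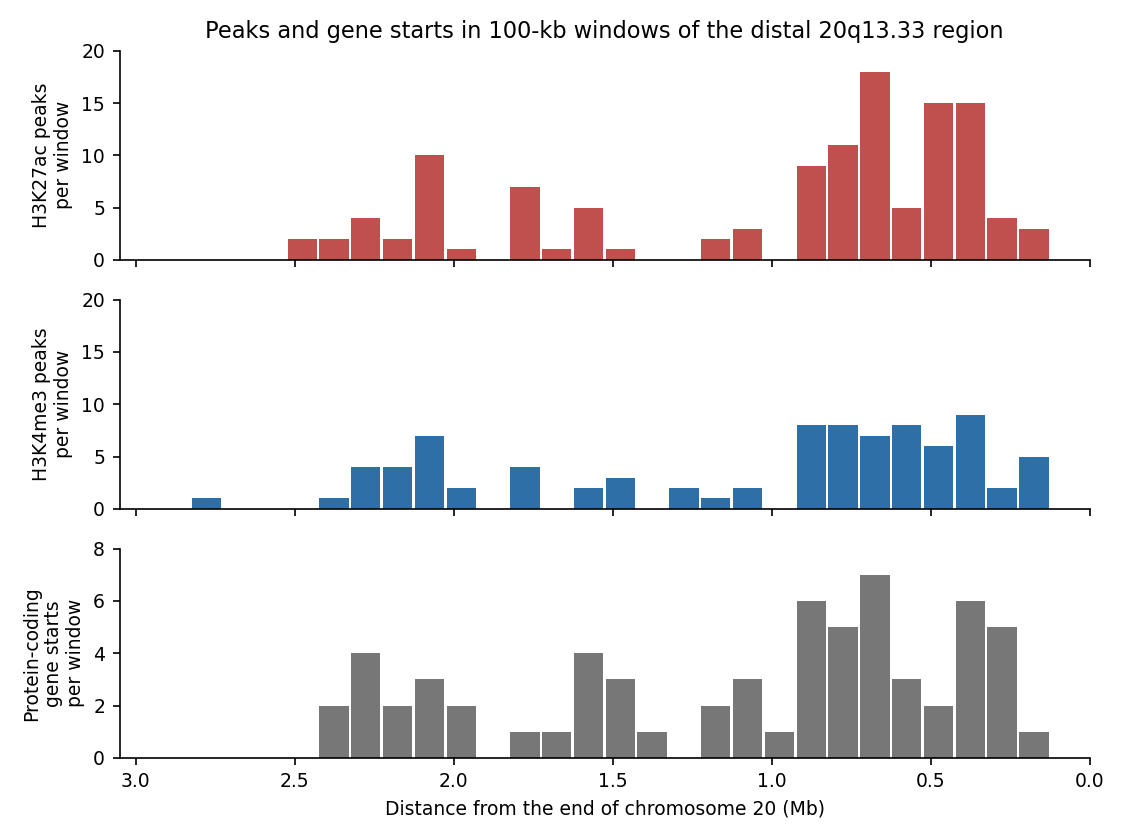
Number of H3K27ac peaks (top), H3K4me3 peaks (middle) and protein-coding gene starts (bottom) in each 100-kb window, against the distance from the end of chromosome 20 in Mb. The tallest H3K27ac bar, with 18 peaks, lies about 0.7 Mb from the end, and windows without bars lie mostly where the bottom panel has none either.

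The 3 longest stretches without a peak of either list lay in the first part of the region. The longest, 362.4 kb (chr20:60219092-60581507), ran over the body of CDH4, a cadherin of neural tissue, and the 3′ part of TAF4. The next, 218.9 kb from the 60 Mb boundary on, also lay in CDH4. It was cut off by that boundary, before which no peak of either list lay for 1384 kb, and is longer when followed past it. The one after it, 214.8 kb (chr20:61050834-61265682), held MIR1-1 and MIR133A2, microRNAs known from muscle, and took in the start of GATA5 and 100 kb of assembly gap, over which no read can be placed. At the boundary the lists were sparse. The last H3K27ac peak before 60 Mb lay 1384 kb away (−log10 q 2.16) and the first inside 581.5 kb away (1.89), and for H3K4me3 these were 1484 kb (2.97) and 218.9 kb (1.44). The last peak before the chromosome end was an H3K27ac peak at chr20:62896803-62896992 (2.62) over PCMTD2, 128.5 kb from the end, of which the last 60 kb are assembly gap.

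Most of the members were weak and short. The H3K27ac peaks had a median width of 300 bp (quartiles 225 and 437) and a median −log10 q of 2.78 (2.08 and 3.55), and the H3K4me3 peaks 308 bp (241 and 460) and 2.97 (2.29 and 4.49). On the rest of the chromosome the medians were 283 bp and 2.65 for H3K27ac and 310.5 bp and 3.13 for H3K4me3, so the medians lay close together. The upper end of the H3K27ac list differed more. A −log10 q of at least 5 was reached by 19 of 120 H3K27ac members (15.8%, 95% Clopper-Pearson interval 9.81 to 23.6) against 8.96% on the rest of the chromosome, and 5 of 120 were at least 1 kb wide (4.17%, 1.37 to 9.46) against 0.8%. For H3K4me3 the shares were 18.6% against 19.7% and 4.65% against 3.94%.

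HELZ2, a helicase known as a nuclear receptor coactivator, carried the highest H3K4me3 peak of the region and, with RTEL1, the highest H3K27ac peak. Its H3K4me3 peak (chr20:62204883-62205542, 660 bp) reached a −log10 q of 13.7 and its H3K27ac peak (chr20:62205062-62205539, 478 bp) 13.0, and both overlapped exon 1. The next H3K27ac peaks were a 1269-bp interval with 2 summits in an intron of RTEL1 (chr20:62312237-62313505, 13.0), the helicase that keeps telomeres intact, and a 438-bp interval over exon 1 of the canonical transcript of TCEA2 (chr20:62694733-62695170, 12.6), a transcription elongation factor. The RTEL1 peak had little H3K4me3 with it, since the H3K4me3 peak inside it was 181 bp wide and had a −log10 q of 2.43. For H3K4me3, the interval over the opposed starts of ARFRP1, a GTPase of the Golgi, and ZGPAT, a zinc finger repressor, came after HELZ2 (chr20:62337611-62340556, 12.7), followed by TCEA2 (chr20:62694544-62695359, 10.1).

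**Figure D3:**
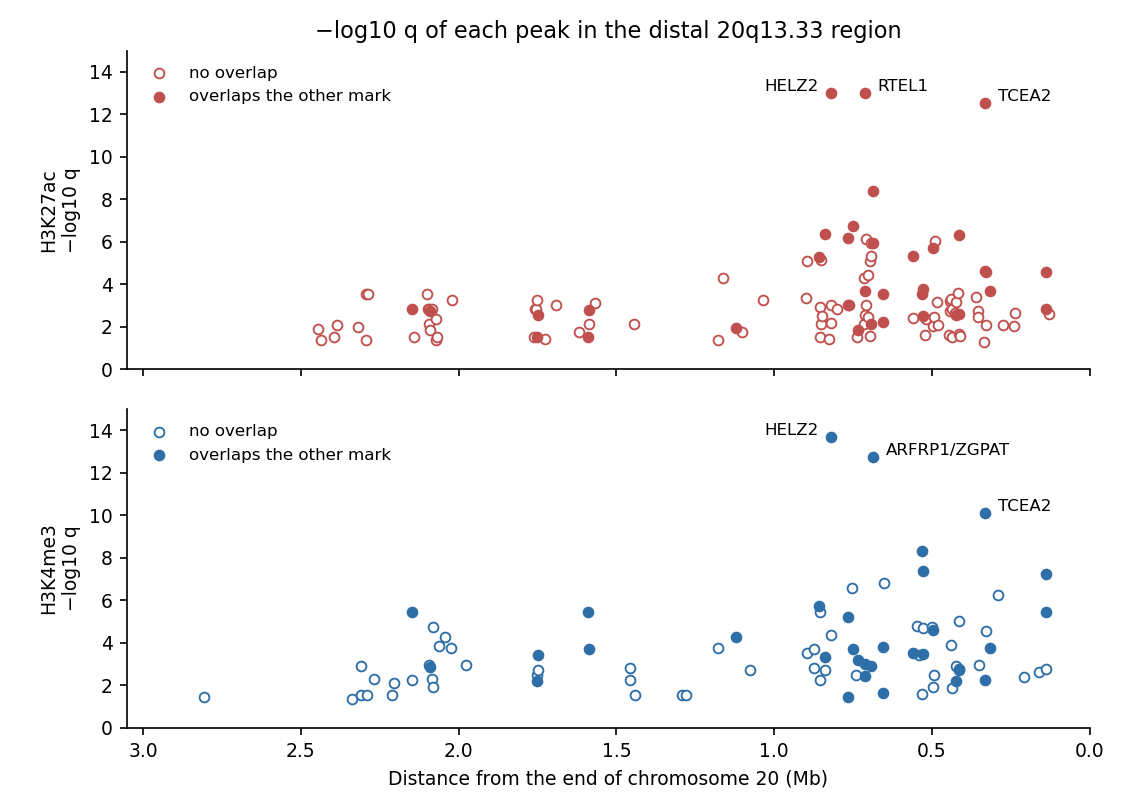
The −log10 q of each H3K27ac peak (top, 120 points) and each H3K4me3 peak (bottom, 86 points) against the distance from the end of chromosome 20 in Mb. Filled points overlap a peak of the other mark and open points do not, and the 3 highest peaks of each mark, all filled, carry the gene they overlap.

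The widest intervals lay in several places. An H3K27ac interval of 2508 bp with 5 summits covered exons 15 to 17 of RTEL1 (chr20:62316555-62319062, −log10 q 6.13) and had no H3K4me3 peak in it. Another of 1448 bp lay outside genes (chr20:62671980-62673427), and the intronic RTEL1 peak came after it. The H3K4me3 interval over ARFRP1 and ZGPAT was 2946 bp wide with 6 summits. The next H3K4me3 intervals were 1064 bp, over the proteasome gene ADRM1 (chr20:60878598-60879661), and 1063 bp, over RGS19, a regulator of G protein signalling (chr20:62709817-62710879). Counted over whole gene bodies, RTEL1 held 11 H3K27ac and 3 H3K4me3 peaks, LAMA5, a laminin chain of basement membranes, 8 and 3, the vesicle chaperone gene DNAJC5 6 and 3, ARFRP1 6 and 2, and TCEA2 5 and 3. The readthrough gene RTEL1-TNFRSF6B shares the 11 and 3 peaks of RTEL1.

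H3K27ac peaks of the region stood close together. Joined when 10 kb or less apart, 104 of the 120 fell into 23 stretches of at least 2 peaks (86.7%, against 68% on the rest of the chromosome), and 16 stood alone. A higher density of peaks raises the share joined at a fixed distance, and it was not taken into account. The stretch with the most bases under peaks ran from RTEL1 to ZGPAT (chr20:62310048-62339262, 29.2 kb) with 16 H3K27ac peaks that covered 10.6 kb and 4 H3K4me3 peaks. It ranked 19 among the 4606 such stretches of the genome. In chromosome order its first 6 H3K27ac peaks had −log10 q of 4.32, 2.16, 2.54, 13.0, 3.71 and 3.04, the next 4 had 6.13, 4.47, 2.45 and 1.56, and the last 6, over ARFRP1, had 5.12, 5.93, 2.16, 5.32, 8.41 and 5.96. The values above 5 were 2 in the RTEL1 part and 5 over ARFRP1. The peak with 1.56 lay over the start of TNFRSF6B, a decoy receptor for Fas ligand, and no H3K4me3 peak lay within 1 kb of that start. The other stretches were 33.8 kb over UCKL1, ZNF512B, SAMD10 and PRPF6 (chr20:62580829-62614593, 14 peaks covering 4.36 kb, 7 H3K4me3 peaks, rank 143) and 17.9 kb over PTK6, SRMS and FNDC11 (chr20:62167954-62185857, 7 peaks covering 3.13 kb, 5 H3K4me3 peaks, rank 265).

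Of the 64 gene starts, 37 had H3K4me3 within 1 kb (57.8%, 44.8 to 70.1), against 41.4% on the rest of chromosome 20 (200 of 483) and a background of 38.2% of all protein-coding starts. H3K27ac was found at 27 (42.2%, 29.9 to 55.2), against 26.7% (129 of 483) and a background of 23.6%. Without the window from 62 to 63 Mb, H3K27ac was at 25% of the starts (10.7 to 44.9), below the rest of the chromosome, and H3K4me3 at 57.1% (37.2 to 75.5). Both marks were present at 21 starts (32.8%, background 18.6%), H3K4me3 alone at 16, H3K27ac alone at 6 and neither at 21. Starts without either mark made up 32.8% here, 53.6% on the rest of the chromosome and 56.8% of all starts. Among starts with H3K4me3, H3K27ac was present at 56.8% (39.5 to 72.9) in the region and 52.5% on the rest of the chromosome, with overlapping intervals. Because genes are packed, 17 of the 64 starts lay within 1 kb of another, and a peak between opposed genes counted for both.

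**Figure D4:**
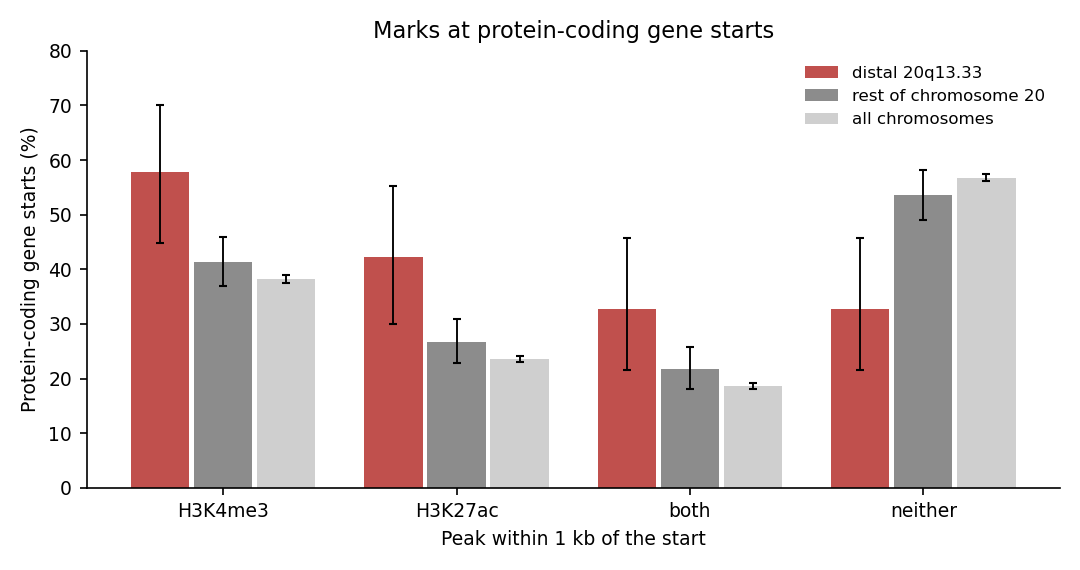
Percentage of protein-coding gene starts (vertical axis) with H3K4me3, H3K27ac, both or neither within 1 kb, for the 64 starts of distal 20q13.33, the 483 of the rest of chromosome 20 and the 20163 of all chromosomes. Bars are the shares and lines their 95% Clopper-Pearson intervals, and the region has the highest share of marked starts (57.8% for H3K4me3 and 42.2% for H3K27ac) and the lowest share with neither (32.8%).

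The gene lists below are to be read beside the shares over all starts, 57.8% for H3K4me3 and 42.2% for H3K27ac in the region and 38.2% and 23.6% over all chromosomes. All 3 proteasome and ubiquitin ligase genes were marked, namely PSMA7, a subunit of the proteasome core (nearest peak 527 bp away, −log10 q 2.93), ADRM1, its ubiquitin receptor (38 bp, 5.47), and GID8, a ubiquitin ligase subunit (495 bp, 2.83). PSMA7 and SS18L1 (329 bp apart) shared the same H3K4me3 peak, as did GID8 and DIDO1 (195 bp apart). ADRM1 alone of the 3 had H3K27ac as well (2.82). The 3 translation genes RPS21, a ribosomal protein (3.87), EEF1A2, an elongation factor (3.54), and MTG2, a mitochondrial ribosome GTPase (2.29), had H3K4me3, and 0 of 3 had H3K27ac within 1 kb. For EEF1A2 the nearest H3K27ac peak was 1333 bp away, and for MTG2 20507 bp.

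Of 16 genes of transcription, chromatin and RNA, 9 had H3K4me3 and 8 H3K27ac, close to the shares over all starts of the region. The 6 with both were GMEB2, ZGPAT, SLC2A4RG, ZNF512B, HELZ2 and YTHDF1. GMEB2, a glucocorticoid modulatory factor, had −log10 q of 6.18 for H3K27ac and 5.20 for H3K4me3. YTHDF1, a reader of methylated adenosine in RNA, had 1.39 and 3.76. H3K4me3 alone stood at SS18L1 (2.93), DIDO1 (2.83) and PRPF6, a splicing factor (5.04, with H3K27ac 1002 bp away, just outside the limit). H3K27ac alone stood at ZBTB46 (2.42) and RTEL1 (1.55). TAF4, a subunit of the general factor TFIID, and MRGBP, LSM14B, TCFL5 and TCEA2 had neither. The nearest peak of either list lay 1353 bp from the start of TAF4 and 34235 bp from that of TCFL5.

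Genes known from other tissues were in mixed states, in short lists. Of 4 lineage factors, GATA5 (H3K4me3 2.94) and MYT1, a factor of neural cells (6.27), had H3K4me3 alone, and SOX18, of vessels, and BHLHE23 had neither. Of 7 neuronal genes, 2 had H3K4me3, 3 had H3K27ac and 4 had neither. CHRNA4, an acetylcholine receptor subunit, and HRH3, NTSR1 and NPBWR2, which encode other receptors, had neither mark. The nearest peak to the start of CHRNA4 lay 20066 bp away. OPRL1, an opioid-like receptor, and NKAIN4 had both marks, but their starts lay 94 and 91 bp from those of RGS19 and ARFGAP1, and each pair was marked by the same peaks. STMN3, a regulator of microtubules in neurons, had H3K27ac alone at its outer start (1.55). That peak lay over the start of RTEL1, 128 bp from that of STMN3. Each of the 3 neuronal genes with H3K27ac thus shared its peak with a neighbouring gene.

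Among 3 matrix genes, LAMA5 had H3K4me3 (4.76), COL20A1 H3K27ac (1.74) and COL9A3 neither. Among 5 genes of kinases, adaptors and cell death, PTK6, a tyrosine kinase of epithelial cells, had both marks directly over its start (5.31 for H3K27ac and 5.73 for H3K4me3), TNFRSF6B had H3K27ac alone, and SRMS, LIME1 and BIRC7 had neither. SRMS, the kinase gene next to PTK6, had 5 H3K27ac peaks over its body with −log10 q between 1.55 and 5.14, yet its start lay 2281 bp from the nearest. Among 7 genes of vesicle traffic and transport, ARFGAP1, ARFRP1, TPD52L2 and SLCO4A1 had both, DNAJC5 had H3K4me3 alone (4.75), and OSBPL2 and SLC17A9 had neither. TPD52L2 had the highest values of these after ARFRP1, with 3.79 for H3K27ac and 7.40 for H3K4me3. Of the 15 other protein-coding genes, 11 had H3K4me3 and 8 H3K27ac, against 57.8% and 42.2% of all starts of the region.

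The call at single genes depended on which start was used, since the outer 5′ end can belong to a rare transcript. With the 5′ end of the canonical transcript, 10 of the 64 genes changed state. TCEA2 and FNDC11 went from neither to both, RTEL1 from H3K27ac alone to both and STMN3 from H3K27ac to H3K4me3 alone, while DIDO1, NKAIN4, ZBTB46, MYT1, C20orf204 and ENSG00000273154 lost their marks. Of the 21 genes without a mark, 15 had no peak within 1 kb of any of their annotated transcript starts, among them CHRNA4, NTSR1, SOX18, TCFL5, LSM14B and MRGBP.

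An overlap with the other mark was found for 34 of 120 H3K27ac peaks (28.3%, 20.5 to 37.3), against 22.9% on the rest of chromosome 20 and a background of 24.0%. It was found for 33 of 86 H3K4me3 peaks (38.4%, 28.1 to 49.5), against 35.0% and a background of 31.1%. Without the window from 62 to 63 Mb the shares were 17.5% (7.34 to 32.8) and 21.2% (8.98 to 38.9). These lay below the rest of the chromosome, but their intervals include its values. Both intervals of the whole region take in the value of the rest, so a difference was not detectable with this number of peaks. The shared peaks had the higher median −log10 q and width. A wider peak overlaps another more readily, and width was not taken into account. Shared H3K27ac peaks had a median −log10 q of 3.63 and a width of 351 bp, against 2.53 and 261 bp for the 86 others, and shared H3K4me3 peaks had 3.71 and 414 bp against 2.78 and 297 bp. Peaks without an overlap lay nearer to the other mark than elsewhere, at a median of 2.67 kb for H3K27ac against 12.2 kb on the rest of the chromosome, and 2.50 kb for H3K4me3 against 13.6 kb. The density of peaks, which shortens such distances, was not taken into account.

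A gene start lay within 3 kb of 54 of 120 H3K27ac peaks (45%, 35.9 to 54.4), against 31.8% on the rest of the chromosome and a background of 30.5%. Within 1 kb the shares were 23.3% and 20.8%, and without the window from 62 to 63 Mb the share within 3 kb was 32.5% (18.6 to 49.1). For H3K4me3 it was 57 of 86 (66.3%, 55.3 to 76.1), against 68.5% and a background of 60.2%. The 66 H3K27ac peaks farther from an outer start were mostly within genes. Of these, 57 did not overlap H3K4me3, and 48 of the 57 lay in protein-coding genes and 7 outside all annotated genes, with a median −log10 q of 2.47. Another 9 did overlap H3K4me3, all inside protein-coding genes, with a median of 4.64, and the RTEL1 and TCEA2 peaks shown above are among them. The TCEA2 peak, another just upstream of it (−log10 q 4.64) and that over exon 1 of FNDC11 lay within 1 kb of canonical starts. With the starts of every transcript, 70.8% of the 120 H3K27ac peaks lay within 3 kb, against 45.9% on the rest of the chromosome. Peaks far from an outer start were thus often near another start. By position, 39.2% of all H3K27ac members touched an exon of a protein-coding gene (30.4 to 48.5), against 22.7% on the rest of the chromosome, and 14.2% lay outside genes (8.47 to 21.7), against 24.6%. For H3K4me3 the direction was the other way, with 38.4% of members in exons (28.1 to 49.5) against 45.3%, and 17.4% outside genes (10.1 to 27.1) against 11.8%.

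The starts of the region were rich in G+C and CpG. In the 1 kb around a start the median G+C was 71.1% against 60.7% on the rest of the chromosome, and the median ratio of observed to expected CpG 0.802 against 0.712. The states differed in CpG. The median ratio was 0.804 at starts with both marks, 0.873 with H3K4me3 alone, 0.5003 with H3K27ac alone (6 starts) and 0.728 with neither. On the rest of the chromosome the starts with neither had a median ratio of 0.429, and unmarked starts with many CpGs include those of TCFL5, LSM14B and MRGBP printed above. TAF4 had the highest G+C of the 64 starts (82.8%) and no mark. Split at a ratio of 0.6, H3K4me3 marked 31 of 44 starts with the higher ratio (70.5%, 54.8 to 83.2) and 6 of 20 with the lower (30%, 11.9 to 54.3), against 60.7% and 12.4% on the rest of the chromosome. H3K27ac marked 17 of 44 (38.6%, 24.4 to 54.5) and 10 of 20 (50%, 27.2 to 72.8), against 35.9% and 13.0%. For H3K27ac at starts of lower ratio, the interval of the region lies above the 13.0% of the rest of the chromosome (8.56 to 18.5). That interval takes the starts to be independent, but among the 10 marked starts STMN3 and RTEL1 shared the same peak. RTEL1-TNFRSF6B and ENSG00000273047 are readthrough genes. All of the 10 but ADRM1 and COL20A1 lay in the last megabase of the region. At their canonical starts, STMN3 and C20orf204 had no H3K27ac. The part of G+C in how well reads were recovered was not tested.

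**Figure D5:**
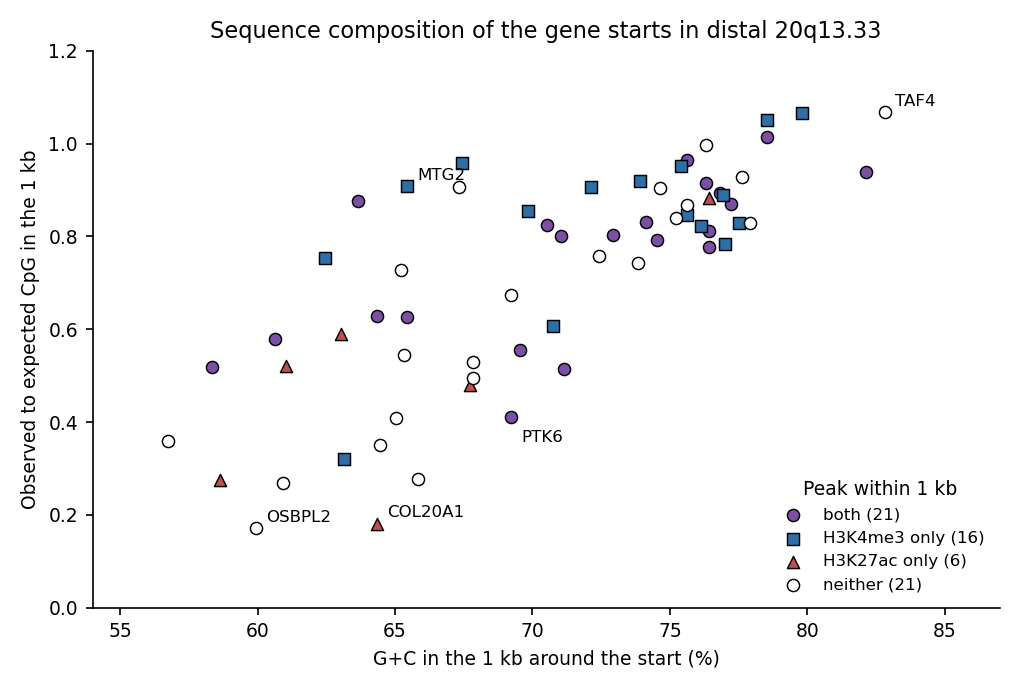
Ratio of observed to expected CpG (vertical axis) against G+C in percent (horizontal axis) in the 1 kb around each of the 64 gene starts of the region, with the symbol showing which mark lay within 1 kb. Starts with H3K4me3 gather at the upper right, 5 of the 6 starts with H3K27ac alone lie below a ratio of 0.6, and open circles, with neither mark, lie throughout.

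The peaks themselves were richer in G+C, as was the region, but the CpG ratio was higher for H3K27ac alone. The median G+C was 64.2% in H3K27ac members and 66.4% in H3K4me3 members, against 55.5% and 60.01% on the rest of the chromosome, and the median ratio of observed to expected CpG was 0.345 and 0.560 against 0.290 and 0.581. Short motifs were searched on both strands in the 200 bases around each peak centre. The GC box GGGCGGG, which Sp1 family factors bind, was found in 23.3% of H3K4me3 members (14.8 to 33.6) and 10.8% of H3K27ac members (5.90 to 17.8), against 15.8% and 5.6% of the peaks on the rest of the chromosome. Among the H3K27ac members it was in 23.5% of those shared with H3K4me3 and 5.81% of the others. All 200-base windows of the region held it in 6.46% and those of the rest of the chromosome in 1.29%. In the sequences printed above it occurs 6 times upstream of TCFL5, 2 times upstream of LSM14B, and 1 time each in the TCEA2 stretch and upstream of MRGBP. The AP-1 motif TGANTCA, which reads the same on both strands, was in 3.33% of H3K27ac members and 3.2% of H3K27ac peaks elsewhere on the chromosome, against 4.11% of all windows of the region. The ETS motif CCGGAAGT was in 0 of 120 and 0 of 86 members, and the forkhead motif TGTTTAC in 1 of 120 and 0 of 86, against 0.258% and 1.42% of all windows of the region. These are matches of letters and not bound sites.

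Among noncoding genes, H3K27ac lay within 1 kb of 9 of 54 starts of long noncoding RNAs (16.7%, 7.92 to 29.3) and H3K4me3 of 11 of 54 (20.4%, 10.6 to 33.5), against 10.7% and 14.0% on the rest of the chromosome. Of the 15 with either mark, 7 started within 1 kb of a protein-coding start, as MHENCR did at 78 bp from GMEB2. HAR1A and HAR1B did not, at 95170 and 95596 bp from the nearest protein-coding start, and shared 1 weak H3K4me3 peak (−log10 q 1.55). Of 13 microRNA genes, 1 had H3K27ac within 1 kb (hsa-mir-3195, 2.097, in TAF4) and 0 had H3K4me3.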

How the data were processed

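The deposited peak lists of H3K27ac and H3K4me3 were used, 1 library each. According to the submitters' processing notes, the authors used Bowtie 1.1.1, SAMtools 1.2, Picard 1.118 and MACS2 2.1.0 on hg19 (GRCh37). The calling threshold is not given in the sources used here. The study kept input chromatin for normalization, and no source used here says that it served as the control for peak calling. The last column was read as the −log10 q given by the authors' peak caller, from its values alone: its minimum was 1.303 and 1.306, against 1.301 for a q of 0.05. Read counts were not analysed here, so depth is unknown, and a stretch without a peak cannot be told from one with too few reads.

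The lists hold 25275 and 20282 entries, 1 per summit, of which 131 and 94 lie in the region. Distinct intervals were kept as peaks. An overlap was at least 1 bp. Gene starts came from GENCODE 44 lifted to GRCh37. Intervals are exact Poisson, conditional binomial (ratios) or Clopper-Pearson, computed with Python 3.11.15, NumPy 2.4.6 and scipy 1.17.1, and the interval searches were tested on simulated data. No test was run. The region, gene lists and named peaks were chosen with earlier results of these data known. Named were the 3 highest and 3 widest peaks of each mark, the 3 stitched H3K27ac stretches with most bases under peaks, the 3 fullest 100-kb windows, the 3 longest empty stretches, the 5 genes with most peaks over the body and the members of the gene lists by state, of which 1 is not reported here. Printed sequences leave out untranslated exon sequence.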

Additional observations from a re-analysis of the deposited data

How the results depend on the processing

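Of 74 alternative values for 14 results, 45 moved by less than the counting error and 29 by more. All 24 ratios of the region to the rest of chromosome 20 were above 1, 22 with their interval above 1. The exceptions were the ratios per start without the window from 62 to 63 Mb, an alternative chosen after seeing the data: 1.104 for H3K27ac (0.781 to 1.52) and 1.40 for H3K4me3 (0.952 to 2.00). Without that window the density ratios were 1.90 and 2.41, marked starts for H3K27ac 25% (26.7% on the rest of the chromosome), overlap 17.5% and 21.2% (22.9% and 35.0%), and H3K27ac peaks near a start 32.5% (31.8%), so H3K27ac at starts and the overlap of both marks fell below the rest of the chromosome. The intervals of these shares all include the values of the rest. Values for H3K27ac and then H3K4me3 follow. Peaks at or above the median −log10 q of their list gave 23.4% (13.75 to 35.7) and 42.2% (29.9 to 55.2) of starts marked. Both intervals include the 19.7% and 31.5% of the rest of the chromosome. These peaks had median widths of 349 and 374 bp, against 326 and 395 bp on the rest of the chromosome. Their median −log10 q, raised by the selection itself, was 3.55 and 4.45, against 3.55 and 4.53. From 61 Mb on, the H3K27ac density ratio was 4.74. Starts of all genes gave ratios of peaks per start to the rest of the chromosome of 1.86 and 2.05, and 26.1% and 33.8% marked. A limit of 500 bp gave 42.2% for H3K4me3 and 3 kb gave 60.9% for H3K27ac. The start of any transcript, chosen after seeing the data, gave 70.3% for H3K4me3. The canonical start, also chosen after seeing the data, gave 37.5% (25.7 to 50.5) for H3K27ac, an interval that includes the 28.0% of the rest. Overlap was 49.2% and 60.5% within 1 kb, and 16.7% and 23.3% for 50% of both peaks. Peaks near a start were 23.3% and 48.8% within 1 kb (20.8% and 53.9% on the rest of the chromosome), and 70.8% and 80.2% with every transcript. The region stood above the rest of the chromosome in 8 of 9 alternatives for H3K27ac at starts and 9 of 9 for H3K4me3. For the overlap of each mark it did so in 6 of 7. For peaks near a start it did so in 7 of 7 for H3K27ac and 1 of 7 for H3K4me3. These counts give the direction alone and take no account of the intervals, some of which include the value of the rest. No paired analysis was possible because both marks have a lone library, and leaving out a replicate could not be done either. Depth limits every statement on a missing peak.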
